A study of Zea mays with 144 samples.

Results

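Chalcone synthase (c2), A1 and 4CL are 3 maize genes of the route from phenylalanine to flavonoids, and their transcripts were followed here through 6 stages of anther development in both florets of the spikelet. Features of the array were chosen by name: every feature whose array annotation or reference gene gave 1 gene with the symbol or synonym c2, A1 or 4CL. This gave 7 of 12160 features. The gene c2, also listed as colorless2, had features 5588, 7960 and 10186. A1, also listed as DFR and FNR, had feature 12122. The gene listed as 4CL had features 720, 2062 and 10142. No filter on low values was used, and all 7 features had a value in every scan.

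The enzyme encoded by 4CL joins coumarate to coenzyme A and stands before the point where the routes to lignin, to other phenylpropanoids and to flavonoids part. Chalcone synthase, encoded by c2, takes that product into the flavonoid branch and is its first committed enzyme. A1 encodes dihydroflavonol reductase, a later enzyme on the way to anthocyanins. In anthers, flavonols reach the pollen surface from the tapetum, the layer that lines the locule, and in maize they are needed for pollen to function.

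All anthers came from the inbred line Ky21, given in the design as (N)Ky21, with no treatment named. A maize spikelet carries 2 florets, called upper and lower, and anthers of each were sorted by light microscopy. The stages, in order, were meiocyte and dyad/tetrad (mixed), then tetrad and early microspore, and last mid-microspore and mid/late microspore (mixed). Each of the 12 groups of stage and floret had 2 RNA pools, 24 in all, and a pool held RNA of 1 to 4 plants, each giving 8 to 20 anthers. These pools form 2 sets of 12 by the number in their labels, and each of 48 spotted cDNA slides compared 2 pools of a set in 2 colours, with each pool on 4 slides and each slide scanned at 3 intensities. The number of slides and pools limits the precision. A p-value here rests on the spread among pools, of which some may hold 1 plant and others mix up to 4.

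Values below are log2 levels of a pool against the average of its set, or log2 ratios between groups. Absolute levels were not measured, so that features are compared by their profiles alone. The deposited ratios were read as natural logs, a base taken from the values, and every log2 value and fold depends on it. The labels do not state which channel is the numerator. Stage slides were read as Cy5 over Cy3 and floret slides as upper over lower floret. Under this reading the 3 features of the meiocyte list (REC8, ZYP1 and rad51a, genes of meiotic recombination and pairing) had a mean level of 1.16 in upper and 1.40 in lower florets at the meiocyte stage and of -0.20 and 0.051 at the last stage. The 3 were not alike. In upper and lower florets rad51a had 1.87 and 2.80 in meiocytes and REC8 0.68 and 0.72. REC8 was also at 0.54 and 0.72 in mid-microspores. ZYP1 had no stage effect called by a limma F test (adjusted p = 0.0861 and 0.398). The direction of the stage slides is therefore likely and not stated by the labels. By themselves the markers do not bear on the floret slides, whose reading rests on their match to the stage slides. With the sign turned every higher and lower exchanges.

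Across development, the means of 4CL were low in meiocytes and highest at the early or mid-microspore stage, those of c2 lay below the set average through the tetrad stage and were highest at the last 2 stages, and A1 stayed within a narrow range with its highest values at the early microspore stage. A limma F test over the 6 stages called a stage effect for 6 of the 7 features in upper florets, where 37.5% of all features were called, and for 7 of 7 in lower florets, where the share was also 37.5%. The exception was A1 in upper florets (adjusted p = 0.358). Whole anthers hold several cell types, so fewer cells of a type and less RNA per cell cannot be told apart in any of these values.

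**Figure D1:**
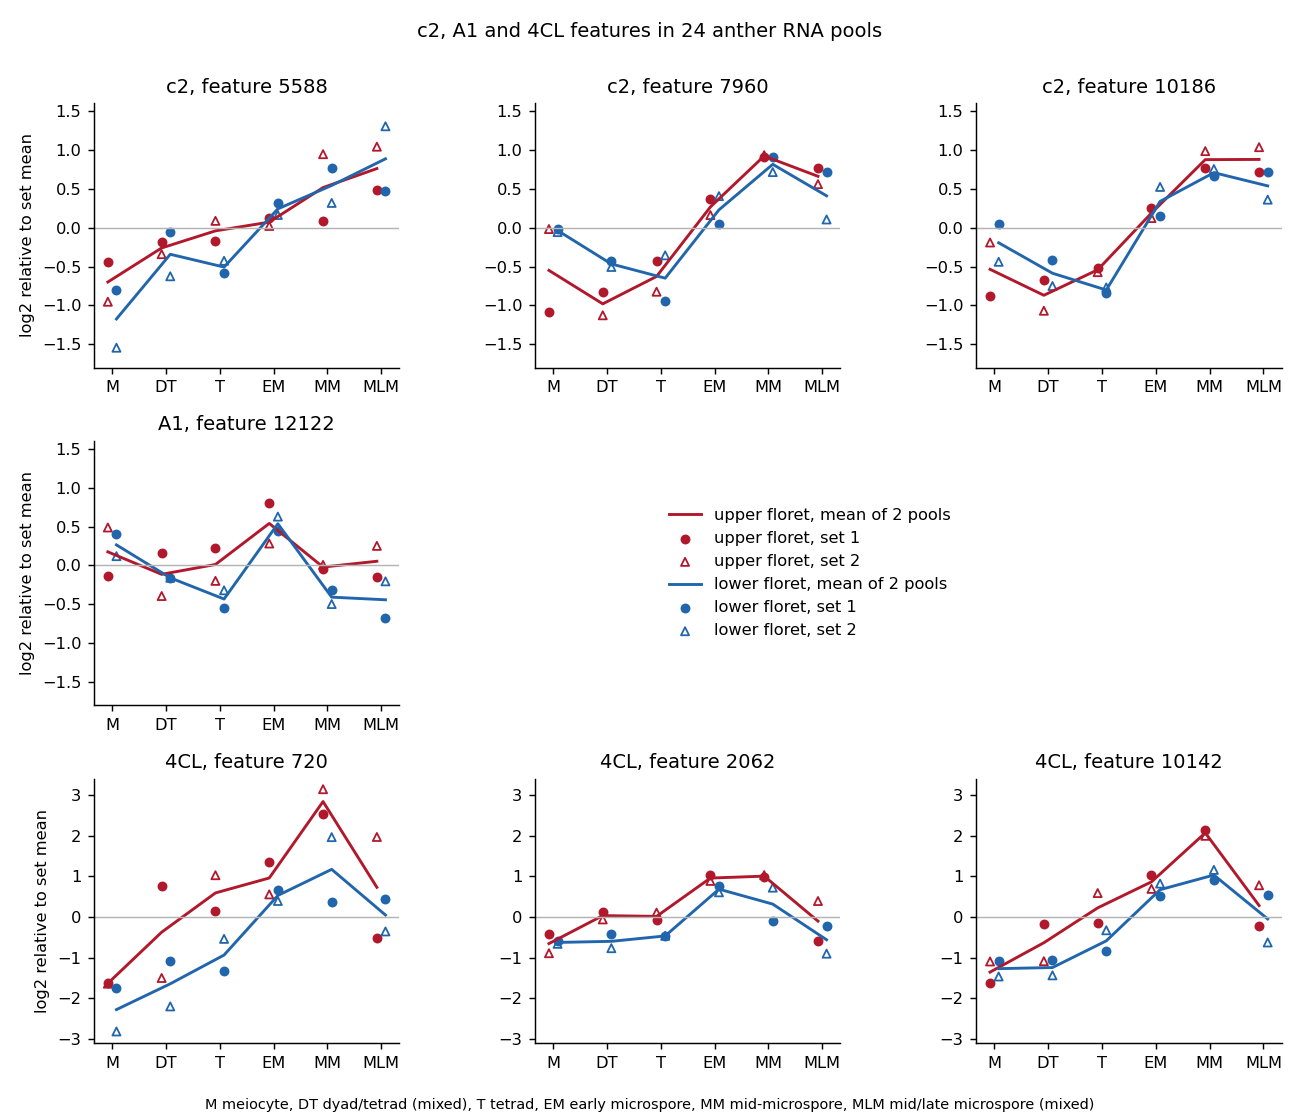
Level of each feature (log2 against the average of a set's 12 pools) at 6 stages in upper (red) and lower (blue) florets. Filled circles are pools of set 1, open triangles pools of set 2 and lines the mean of both, and the c2 and A1 panels share an axis range that differs from that of the 4CL panels. The 4CL features peak at the early or mid-microspore stage, the c2 features at the last 2 stages, and A1 at the early microspore stage.

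Feature 10142 gave the most even record of 4CL, with a mean SD between the 3 scans of a slide of 0.0861 on the log2 scale against a median of 0.138 over all features. In upper florets its levels in sets 1 and 2 were -1.62 and -1.09 in meiocytes, -0.18 and -1.09 in dyads and tetrads, -0.14 and 0.59 in tetrads, 1.04 and 0.69 in early microspores, 2.14 and 2.00 in mid-microspores, and -0.22 and 0.78 at the last stage. In lower florets they were -1.08 and -1.46, -1.05 and -1.44, -0.85 and -0.33, 0.52 and 0.82, 0.90 and 1.16, and 0.53 and -0.63 in the same order. In both florets the 4 pools of the first 2 stages lay below 0 and the 4 pools of the early and mid-microspore stages above it. The pools of the last stage stood on both sides of 0.

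From meiocytes to mid/late microspores, 10142 rose 3.11-fold in upper florets (log2 ratio 1.64 ± 0.43, SE, n = 2 pools per group, adjusted p = 0.0122) and 2.33-fold in lower florets (1.22 ± 0.43, adjusted p = 0.0472). In upper florets this call of 4CL was lost on leaving out the last-stage upper pool of set 2 (adjusted p = 0.128) or the meiocyte upper pool of set 1 (0.0949). That in lower florets was lost on leaving out any of 16 of the 24 pools, with adjusted p up to 0.511 without the last-stage lower pool of set 1. The first and last stages miss the peak of this gene. At the mid-microspore stage the level of 10142 was 10.7-fold that of meiocytes in upper florets (log2 ratio 3.43, 95% interval 2.51 to 4.35). In lower florets it was 4.94-fold (2.30, interval 1.38 to 3.22). These differences are given without a test. In each floret they set the lowest stage mean against the highest, and the intervals take no account of that.

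After the peak, 10142 fell by 1.79 on the log2 scale from mid- to mid/late microspores in upper florets (adjusted p = 0.0433 over all 10 steps). It fell by 2.36 in set 1 and fell by 1.22 in set 2. This call was lost on leaving out any of 19 of the 24 pools (adjusted p up to 0.242, without the last-stage upper pool of set 1). In lower florets the same step was not called (adjusted p = 0.260).

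The other 4CL features differed from 10142 in amplitude, and 2062 also in its last stages. Feature 720 had the widest range of the 7, from a mean of -2.28 in lower-floret meiocytes to 2.84 in upper-floret mid-microspores. Between the first and last stages its log2 ratio was 2.36 ± 0.84 in upper florets (adjusted p = 0.0509) and 2.33 ± 0.84 in lower florets (adjusted p = 0.0525), neither past the threshold. Its last-stage upper pools stood far apart, at -0.51 in set 1 and 1.97 in set 2, and without the former the upper ratio was 3.95 with an adjusted p of 0.00487. Pools of the mixed dyad/tetrad stage in upper florets were also far apart, at 0.75 and -1.50.

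Feature 2062 had the smallest amplitude of the 4CL features. Its mean level in upper florets was -0.65 in meiocytes, 0.96 in early microspores, 1.00 in mid-microspores and -0.10 at the last stage. In lower florets the corresponding means were -0.63, 0.68, 0.32 and -0.56, highest in early microspores, while 10142 was highest in mid-microspores. It ended near its starting level, with first-to-last log2 ratios of 0.55 ± 0.32 (adjusted p = 0.220) in upper and 0.065 ± 0.32 (adjusted p = 0.902) in lower florets, while its stage effect was called in both (adjusted p = 0.00494 and 0.0132). The 4CL features had r between 0.833 and 0.949 with each other over the 24 pools, which share slides within a set.

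For c2, feature 10186 had the smallest SE of the 3 features. That SE is of values averaged over scans, and its high scans lay within 0.05 of a log2 ratio of 0 on 31 of 48 slides. Its mean SD between scans was 0.274, against a median of 0.138 over all features. Its levels in upper florets in sets 1 and 2 were -0.88 and -0.19 in meiocytes, -0.67 and -1.07 in dyads and tetrads, -0.51 and -0.57 in tetrads, 0.25 and 0.12 in early microspores, 0.77 and 0.99 in mid-microspores, and 0.72 and 1.04 at the last stage. In lower florets they were 0.05 and -0.44, -0.42 and -0.75, -0.83 and -0.77, 0.15 and 0.52, 0.66 and 0.76, and 0.71 and 0.36. In both florets every pool from the early microspore stage on stood above every pool of the dyad/tetrad and tetrad stages. Among the pools before the early microspore stage, that of lower-floret meiocytes in set 1 alone stood above 0.

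The transcript of c2 was higher at the last than at the first stage in upper florets by all 3 of its features. The fold was 2.67 for 10186 (log2 ratio 1.41 ± 0.25, adjusted p = 0.000947), 2.75 for 5588 (1.46 ± 0.36, adjusted p = 0.00808) and 2.32 for 7960 (1.21 ± 0.31, adjusted p = 0.0102). With 10142 of 4CL this made 4 of the 7 features called higher in upper florets, against 13.2% of all features, and none called lower. The call of 10186 held with each of the 24 pools left out (adjusted p up to 0.0271). It was lost from high scans alone (log2 ratio 0.56, adjusted p = 0.0665). That of 7960 was lost without the meiocyte upper pool of set 1, which lay at -1.08 against -0.02 in set 2 (log2 ratio 0.60, adjusted p = 0.196), and without the last-stage upper pool of set 1 (adjusted p = 0.0750). For 5588, leaving out any of 4 pools ended the call (adjusted p up to 0.125, without the meiocyte upper pool of set 2).

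In lower florets 5588 rose 4.17-fold (log2 ratio 2.06 ± 0.36, adjusted p = 0.000839), a call that held with each pool left out, and 10186 rose 1.66-fold (0.73 ± 0.25, adjusted p = 0.0409). Feature 7960 had a log2 ratio of 0.45 ± 0.31 (adjusted p = 0.308). The call of 10186 was lost on leaving out any of 11 pools (adjusted p up to 0.366, without the last-stage lower pool of set 1). With 10142 of 4CL, 3 of the 7 features were called higher in lower florets, against 14.3% of all features, and none lower.

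Between the tetrad and the early microspore stage of lower florets, c2 feature 10186 rose 2.20-fold (log2 ratio 1.14 ± 0.25, adjusted p = 0.0269), by 0.99 in set 1 and by 1.29 in set 2. The same step had log2 ratios of 0.88 ± 0.31 for 7960 and 0.75 ± 0.36 for 5588 (adjusted p = 0.184 and 0.379). For 5588 the step from meiocytes to the dyad/tetrad stage was larger, at 0.83 ± 0.36 (adjusted p = 0.307), but its scans disagreed. On the slide of set 2 that compares these stages, its log2 ratio was 4.64 in the low, 0.22 in the medium and 0.29 in the high scan. On the slide of set 1 it was 0, -0.44 and 0.038. Over 10 steps and 7 features, the rise of 10186 and the fall of 10142 were the 2 of 70 steps called, against 2.44% of all steps of all features. Leaving out any of 7 pools ended the call of this rise (adjusted p up to 0.204, without the early microspore lower pool of set 2). The same step of 10186 in upper florets had a log2 ratio of 0.73 ± 0.25 (adjusted p = 0.167).

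The 3 c2 features did not record the early stages alike. Features 7960 and 10186 had r = 0.952 over the 24 pools and were lower at the dyad/tetrad stage than in meiocytes on average, with upper-floret means of -0.55 and -0.98 for 7960 and of -0.54 and -0.87 for 10186. Feature 5588 had its lowest means in meiocytes, at -0.70 in upper and -1.17 in lower florets, and rose to 0.76 and 0.89 at the last stage. Its r was 0.550 with 7960 and 0.698 with 10186. Its scans of the slides from meiocytes to dyads and tetrads disagreed, as given above for lower florets. What part of its early profile rests on low scans was not tested. A second chalcone synthase gene of maize, whp1, is in the reference but has no feature here by the annotation, and whether a c2 feature also binds its transcript was not tested.

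Scan intensity moved the c2 and 4CL values. In the high scans the ratios of 7960 and 10186 lay within 0.05 of 0 on the log2 scale on 30 and 31 of 48 slides, against 3 and 4 in the low scans, 3 and 5 in the medium scans, and a median of 5 high scans over all features. Only 2.39% of all features had as many high scans that near 0 as 7960. On the upper-floret slide of set 2 that compares the first and last stages directly, the log2 ratio of 7960 was 0.83 in the low, 0.69 in the medium and -0.0026 in the high scan.

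The first-to-last log2 ratio of 10186 was accordingly 1.85 from low, 1.83 from medium and 0.56 from high scans alone in upper florets, and 1.09, 0.98 and 0.13 in lower florets. With the high scans alone, neither 10186 (adjusted p = 0.0665 and 0.717) nor 7960 (0.161 and 0.777) was called in either floret. With the median of the 3 scans the ratio of 10186 was 1.81 in upper and 0.99 in lower florets. No signals are used here, and whether these spots were saturated in high scans was not tested.

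Features 5588 (c2) and 720 (4CL) varied most between scans, with a mean SD of 0.735 and 0.791 on the log2 scale, at percentiles 87.6 and 89.1 of all features. In low scans they lay at the most frequent value of the scan, shared by 185 to 2327 features, on 8 and 5 of 48 slides. Their first-to-last log2 ratios in upper florets were 3.08 and 3.47 from low scans and 0.51 and 1.99 from medium scans. From medium scans alone the change of 5588 in upper florets was not called (adjusted p = 0.172) and that of 720 was (0.0186). From high scans alone 5588 had 0.79 (adjusted p = 0.0525), so that no c2 feature was called in upper florets from those scans. With columns scaled to one spread 5588 was not called there either (adjusted p = 0.0677). In lower florets the c2 feature 5588 was called from each scan alone, with log2 ratios of 3.92, 1.25 and 1.01 from low, medium and high scans.

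Features 10142 and 2062 of 4CL and 12122 of A1 depended least on the scan among the 7. The first-to-last log2 ratio of 10142 lay between 1.58 and 1.74 in upper florets and between 1.11 and 1.37 in lower florets over the 3 intensities. With medium or high scans alone its lower-floret call was lost (adjusted p = 0.0648 and 0.0786). The first-to-last change of A1 in lower florets was called from high scans alone (log2 ratio -0.77, adjusted p = 0.0446).

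**Figure D2:**
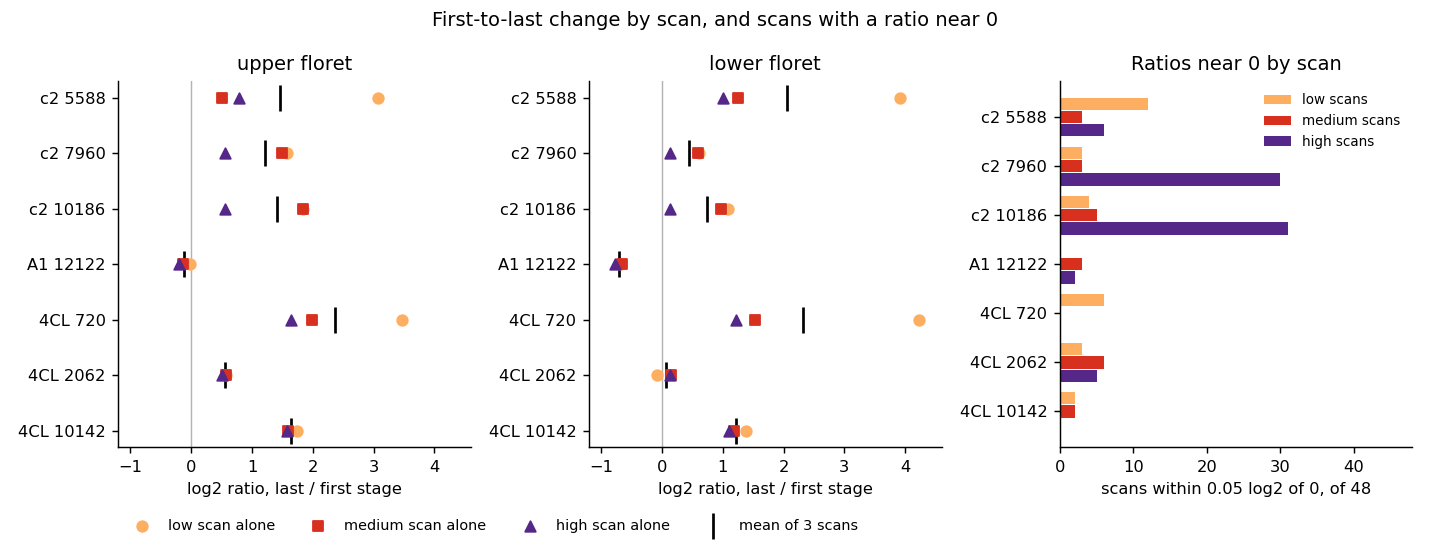
Left and middle, log2 ratio of the last to the first stage for each feature in upper and lower florets from the low (circles), medium (squares) and high (triangles) scans alone and from their mean (black bars). Right, number of the 48 scans of each intensity in which the ratio lay within 0.05 of 0 on the log2 scale. Features 5588 and 720 have their largest ratios in low scans, and 7960 and 10186 lie near 0 in 30 and 31 high scans.

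A1 changed little. In upper florets its levels in sets 1 and 2 were -0.14 and 0.49 in meiocytes, 0.16 and -0.39 in dyads and tetrads, 0.22 and -0.20 in tetrads, 0.80 and 0.28 in early microspores, -0.05 and 0.01 in mid-microspores, and -0.14 and 0.25 at the last stage. In lower florets they were 0.41 and 0.12, -0.16 and -0.16, -0.54 and -0.32, 0.44 and 0.63, -0.32 and -0.50, and -0.68 and -0.21. The meiocyte and early microspore pools of lower florets stood above 0 and the other 8 below it, while the upper-floret stages overlapped.

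The stage effect of A1 was called in lower florets (adjusted p = 0.0301) and lost on leaving out any of 9 pools (adjusted p up to 0.108, without the early microspore lower pool of set 2), from medium scans alone (0.0797), with columns scaled to one spread (0.0548) or with the stage slides alone (0.0569). From tetrads to early microspores its log2 ratio in lower florets was 0.97 ± 0.27 (adjusted p = 0.0819), and from early to mid-microspores -0.94 ± 0.27 (adjusted p = 0.0902). Between the first and last stages it was -0.71 ± 0.27 in lower florets (adjusted p = 0.0651) and -0.12 ± 0.27 in upper florets (adjusted p = 0.784). The 95% interval of the upper-floret ratio ran from -0.70 to 0.46. Its values in the 2 sets had r = 0.499 over the 12 groups, against 0.695 to 0.870 for the c2 and 4CL features.

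Over the 24 pools, the mean profile of c2 had r = 0.716 with that of 4CL and r = 0.0494 with that of A1, and 4CL and A1 had r = 0.149. Across the last step in upper florets the mean of the c2 features went from 0.77 to 0.77 and that of the 4CL features from 1.97 to 0.30. This difference between genes was not tested. The c2 features were not alike at that step, with log2 ratios of 0.24 for 5588, -0.26 for 7960 and 0.0028 for 10186, none called. In the order of the 12 group means, neighbours differed by more than 1 SE of a difference in 1 to 3 of 11 places for each feature. The largest such gap stood between mid-microspores of lower and upper florets, at 1.67 for 720 and 1.04 for 10142.

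Whether the florets differ was asked at each stage and over all stages. The level of 4CL was higher in upper than in lower florets on average, by 2.05-fold for 720 (log2 ratio 1.04 ± 0.34, adjusted p = 0.0377) and by 1.34-fold for 2062 (0.42 ± 0.13, adjusted p = 0.0297). Feature 10142 had a log2 ratio of 0.48 ± 0.17 (adjusted p = 0.0553). The upper pool stood above the lower pool of its set in 11 of 12 pairs of set and stage for 720, in 10 for 2062 and in 9 for 10142. The last stage held an exception in all 3, with log2 ratios of -0.96, -0.38 and -0.75 in set 1.

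Among the 7 features, these 2 were called higher in upper florets over all stages and none lower, against 13.8% of all features called higher in upper florets. Leaving out any of 15 pools ended the call of 720 (adjusted p up to 0.109, without the mid-microspore lower pool of set 1) and any of 13 that of 2062 (up to 0.0704, without the tetrad lower pool of set 1). The difference rests on reading the floret slides as deposited. With those slides turned so that each reads Cy5 over Cy3, the log2 ratios of 720, 2062 and 10142 were 0.18, 0.14 and -0.05 (adjusted p = 0.854, 0.551 and 0.905). From low scans alone neither call held (adjusted p = 0.145 and 0.0651).

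At single stages, 0 of 42 floret differences of the 7 features were called by limma, against 0.0274% of all features and stages, and 2 had an unadjusted p under 0.05. Both were in mid-microspores, at 1.04 ± 0.43 for 10142 (adjusted p = 0.361) and 0.69 ± 0.32 for 2062 (adjusted p = 0.425). In that stage the differences of 10142 were 1.24 in set 1 and 0.84 in set 2, and those of 2062 were 1.07 and 0.31.

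No floret difference over all stages was called for c2 or A1. The log2 ratio of upper over lower florets was 0.12 for 5588 (95% interval -0.19 to 0.43), -0.10 for 7960 (-0.37 to 0.17) and -0.0012 for 10186 (-0.22 to 0.22). For A1 it was 0.21 (-0.021 to 0.45, adjusted p = 0.166), with the upper pool above the lower in 9 of 12 pairs.

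**Figure D3:**
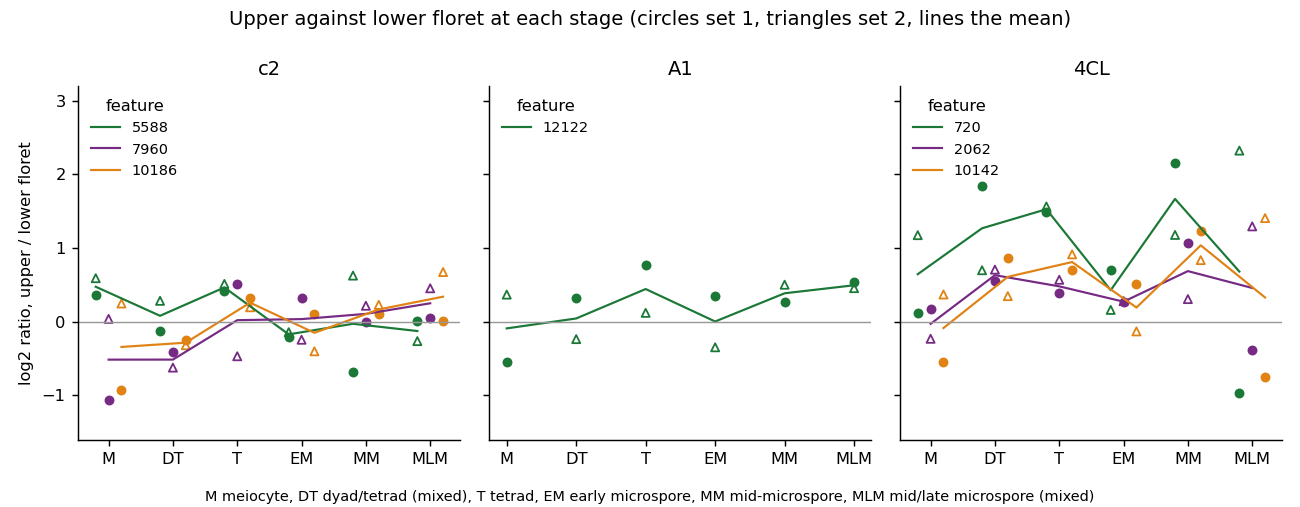
Log2 ratio of upper over lower floret at each stage for the features of c2, A1 and 4CL. Circles are pools of set 1, triangles pools of set 2 and lines the mean of both. The means of 720 lie above 0 at all 6 stages, those of 2062 and 10142 at 5 of 6, and those of c2 on both sides of 0.

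The stage profiles of the florets were much alike. Over the 6 stages the means of upper and lower florets had r between 0.835 (A1) and 0.963 (5588). The interaction of floret and stage was called for 0 of the 7 features, and the share was 0% over all features, of which 270 had an unadjusted p under 0.05 in limma. None of the 7 was among those, which were a smaller share of all features than the 0.05 that no interaction anywhere would give. The model took pool values as independent, although pools share slides, and the effect of this on the test was not tested. The absence of calls therefore does not measure how alike the florets were. For the first-to-last change itself the difference between florets was largest for 7960, at 0.77 with a 95% interval from -0.17 to 1.70, and its adjusted p, like those of the other 6, rounded to 1.00. The width of these intervals sets what 2 pools per group can show.

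The other listed genes of the pathway had 13 features. A stage effect was called for 7 of them in upper and the same 7 in lower florets, against 37.5% of all features in each floret. The share of all features called in both florets was not counted. Between the first and last stages 4 were called higher and 1 lower in upper florets and 5 higher in lower florets, with a median log2 ratio of 0.78 and 0.75. Over all 12160 features 1610 were higher and 1636 lower in upper florets, with a median of -0.012, and 1733 and 1646 in lower florets, with a median of 0.0057. These genes were listed with earlier results of the series known.

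Upstream of 4CL, both features of PAL1, which encodes the phenylalanine ammonia-lyase at the entry of the route, rose from the first to the last stage. Feature 312 had log2 ratios of 1.37 ± 0.21 in upper and 1.16 ± 0.21 in lower florets (adjusted p = 0.000391 and 0.00123), and 7355 had 1.43 ± 0.20 and 1.00 ± 0.20 (0.000156 and 0.00212). The highest level of PAL1 was that of the last stage, with means of 1.08 and 1.18 in upper florets, where the mean of the 4CL features was highest in mid-microspores. No difference between the profiles of these genes was tested.

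In the lignin branch, 6 features were measured. The methyltransferase gene ccoaomt1 (6638) rose in both florets, with log2 ratios of 1.30 ± 0.26 (adjusted p = 0.00241) and 1.09 ± 0.26 (adjusted p = 0.00717). BM1 (3818), a cinnamyl alcohol dehydrogenase gene, rose in lower florets (2.07 ± 0.66, adjusted p = 0.0322) and had 1.27 ± 0.66 in upper florets (adjusted p = 0.175). A feature of the reductase gene CCR (2627) peaked in early microspores, at 1.25 in upper and 1.30 in lower florets, and in upper florets fell by 0.96 on the log2 scale between the first and last stages (adjusted p = 0.0227). BM1 had no stage effect called over the 6 stages (adjusted p = 0.258 in upper and 0.0868 in lower florets). The other CCR feature (164) had no stage effect called (adjusted p = 0.479 and 0.732), nor had ccr2 (0.133 and 0.0585) or cad1 (0.417 and 0.526).

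Among flavonoid genes besides c2 and A1, bz2 (5231), a glutathione transferase gene that acts in the storage of anthocyanin, had its highest mean in early microspores, at 1.42 in upper and 1.02 in lower florets, and was at -0.75 and -0.91 at the last stage. The gene sm2 (4083), of the silk flavone pathway, also had its highest mean there, at 1.08 and 0.66, and rose from the first to the last stage by 0.89 ± 0.18 and 1.07 ± 0.18 (adjusted p = 0.00254 and 0.000719). The chalcone isomerase gene CHI (9058) had no stage effect called (adjusted p = 0.748 and 0.101). Of the regulators, myb31 (6553), whose product represses lignin genes in maize, had a stage effect in both florets (adjusted p = 0.0352 and 0.0213) with its highest mean in early microspores, and myb42 (10820) had none (0.950 and 0.693). No floret difference over all stages was called among the 13 features.

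**Figure D4:**
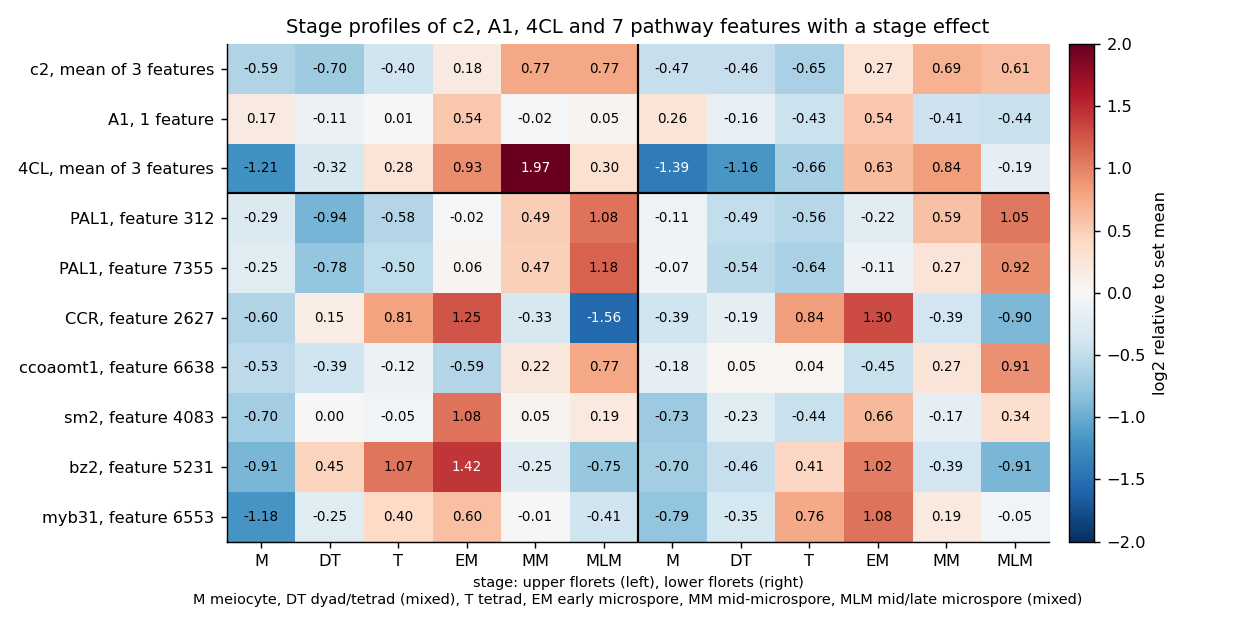
Mean level (log2 against the average of a set's 12 pools, printed in each cell, colour scale from -2 to 2) at 6 stages in upper (left) and lower (right) florets for the mean of the c2 features, A1, the mean of the 4CL features and the 7 pathway features with a stage effect. PAL1 and ccoaomt1 are highest at the last stage, and CCR 2627, sm2, bz2 and myb31 in early microspores.

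By the likeness of their profile over the 24 pools, the named features nearest to the mean of c2 among 1150 were both features of PIP1-1, an aquaporin gene (10630 with r = 0.940 and 1809 with r = 0.934), then GIF2 (r = 0.927), Actin-7 (r = 0.921) and rbcS (r = 0.920), the gene of the small subunit of Rubisco. For 4CL they were thiolase1 (r = 0.841), reticulon (0.829), TIFY30 (0.824), RIP1 (0.821) and hp2 (0.815), and for A1, GNAT42 (0.699), vdac2 (0.676), lox3 (0.654), ae1 (0.651) and cad1 (0.647). These pools share slides and stages, and the values are descriptions of these profiles.

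Markers of other tissues and cells also moved between the stages and florets. Of 9 features of rbcS and of genes of the light-harvesting complexes and photosystems, 6 rose and 1 fell in each floret between the first and last stages, against 13.2% of all features called higher in upper and 14.3% in lower florets. The other 2, cab-m1 (8159) and psaH (10882), had log2 ratios of -0.39 and -0.79 in upper and -0.62 and -1.25 in lower florets, none past the threshold, and the one that fell was also a cab-m1 feature (7132, -1.79 and -1.73). The mean over the 9 went from -0.44 to 0.33 in upper and from -0.20 to 0.60 in lower florets. In upper against lower florets 1 of the 9 was called higher and 4 lower, against 1680 and 1572 of all 12160 features. These floret calls also rest on reading the floret slides as deposited.

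The single listed tapetum gene with a feature was ms23 (4534), a regulator of tapetum development. It was higher in upper florets over all stages (log2 ratio 0.37 ± 0.10, adjusted p = 0.0161). Like the floret calls of 4CL, that of ms23 rests on reading the floret slides as deposited. With those slides turned by the dyes, 1 feature of the whole array was called over all stages, against 3252 as deposited. The ratio of ms23 with the slides turned is not given here. Between the first and last stages ms23 rose in lower florets (0.74 ± 0.25, adjusted p = 0.0392) and had 0.60 ± 0.25 in upper florets (adjusted p = 0.0877). Its means were 0.15 and -0.34 in upper- and lower-floret meiocytes and 0.75 and 0.39 at the last stage. The part of cell composition in the changes of c2 and 4CL, or in the floret differences of 4CL, was not tested.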

How the data were processed

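The deposited values are log ratios of the channels, 1 per feature and scan, centred by the authors near 0 (column medians -0.0253 to 0.0327, natural log). Neither the base nor the software is given in the sources used here. In 47 low scans, distances between values repeated 3 or more times matched whole-number ratios up to 9 (within 5e-06) 61 times with base e, 0 times with log2 and 5 times with log10.

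Values were converted to log2, centred on each scan's median and averaged over the 3 scans of a slide. Pool values were fitted per set by least squares (R 4.3.3, MASS 7.3.60.0.1). A limma 3.58.1 model had 12 groups and a term for set, since centring uses that degree of freedom (11 residual), and Benjamini-Hochberg adjustment ran over all 12160 features, jointly over 10 steps or 6 stages. A call is an adjusted p under 0.05. The fit took pool values as independent, although pools of a set share slides. It was also run on simulated data with independent pools. These had neither scans held near 0 nor errors shared by the scans of a slide, so that run does not bear on such effects.

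Floret slides were used as deposited after the values were seen: steps and floret differences around 10 closed squares of slides had r of 0.266 to 0.483 across features, against -0.0497 to 0.0522 when turned by the dyes.

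Features were named from the array annotation and the Zm-B73-REFERENCE-NAM-5.0 gene table: 6412 had 1 gene, 214 several and 5534 none. Members and lists were chosen with earlier results of these data known. All members were named, with every listed pathway gene and, per gene, the 5 named features of highest correlation. Alternatives were single scans, their median, other scaling or centring, slide direction, no set term, robust variance, the question's own slides, and leaving out each pool. Figures used matplotlib 3.10.9 in Python 3.11.15.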

Additional observations from a re-analysis of the deposited data

Results flagged for a closer look

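At the step from the dyad/tetrad to the tetrad stage, c2 feature 10186 and A1 feature 12122 moved up in both upper-floret sets and down in both lower-floret sets. For 10186 the log2 ratios of the step were 0.16 and 0.50 in upper and -0.41 and -0.019 in lower florets, a difference of 0.54 between the florets. For A1 they were 0.058 and 0.20 in upper and -0.38 and -0.16 in lower florets, a difference of 0.40. The difference at this single step was not tested. The interaction of floret and stage over all stages, which includes it, was not called for either feature (adjusted p rounding to 1.00), and neither step was called within a floret (adjusted p = 0.663 and 0.819 for 10186, 0.926 and 0.773 for A1).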

How the results depend on the processing

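The counts of members called were 4 (upper) and 3 (lower) for the first against the last stage, 2 over the steps, 0 for florets at single stages, 2 for florets over all stages, 6 and 7 for the stage effect in upper and lower florets and 0 for the interaction. Low scans alone gave 1 step and 0 florets over all stages. High scans alone gave 2 for upper first to last, 0 steps and 3 stage effects in upper florets. Columns scaled to one spread gave 1 and 1 first to last and 0 steps. Turning the floret slides by the dyes gave 6 for lower first to last, 12 steps and 0 florets over all stages. Without the replicate block, lower first to last gave 5, with A1 (log2 ratio -0.71) and 720 (2.33) added. Only the question's own slides gave 1 step, 1 floret difference and 4 lower stage effects, and were not run for the interaction. Other counts stayed within 1.5 times. Leaving out 1 pool at a time gave 2 to 5 and 1 to 5 first to last, 0 to 4 steps, 0 to 0 for florets at single stages, 0 to 3 over all stages, 4 to 6 and 4 to 7 stage effects and 0 to 0 for the interaction.

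Signs that turned were of uncalled values. Feature 2062 in lower florets first to last (4CL) was -0.086 from low scans and -0.0060 with scaled columns. The floret average of 10186 (c2) was 0.051 from low scans, 0.0051 from medium scans, 0.013 with the median of scans and 0.0095 with scaled columns. Turning the floret slides by the dyes gave floret averages of -0.070 for A1 and -0.051 for 10142. Leaving out pools gave floret averages of -0.074 to 0.076 for 10186 and -0.0098 to 0.28 for 5588, and first-to-last ratios of -0.56 to 0.17 for A1 in upper florets and of -0.029 to 1.18 in upper and -0.24 to 0.38 in lower florets for 2062. Of single-feature results under the other alternatives, 367 kept direction and side of the threshold, 43 lost the call, 15 gained it and 8 turned.

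Over all features, first-to-last calls numbered 3246 and 3379, against 1376 and 1507 with scaled columns and 4382 and 4321 with the dyes turned. Steps numbered 2969, against 6454 with the dyes turned, so the member counts rose there along with those of the whole array. With 1 pool left out, upper first-to-last calls fell as low as 1708 (without the meiocyte upper pool of set 1), lower ones to 1852 (without the last-stage lower pool of set 2) and steps to 1455 (without the early microspore upper pool of set 1), and florets at single stages ranged from 0 to 45 calls, so that the shares over all features in the text move too. Florets over all stages had 1 call with the dyes turned against 3252. Florets at single stages had 20 calls, against 114 with the median of scans, 140 without the block, 41 from low scans, 41 with scaled columns, 31 from the floret slides alone and 0 with the dyes turned. The replicate number marks pools tied by slides, and deviations of set 1 pools from their group means had r between -0.459 and 0.450 across features (median -0.102, 66 pairs). Limits are 2 pools per group, no signal over background, an unstated log base and an unstated direction of the ratios.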
